A study of Mus musculus with 11 samples.

Results

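The 165 variable gene segments of the mouse T cell receptor alpha and beta chains were followed as single rows of a bulk RNA-seq count table of 55487 genes. They were chosen by name alone, as every gene whose symbol begins with Trav or Trbv. Of these, 130 were alpha segments (Trav) on chromosome 14 and 35 were beta segments (Trbv) on chromosome 6. The table held 11 libraries from a study of FGF21 secreted by MC38 cells, a mouse colon carcinoma line, and its effect on CD8+ T cells. MC38 cells carried either a control short hairpin RNA (shNC, labelled WT) or a hairpin against Fgf21 (shFgf21, labelled as an FGF21 knockdown). T cells sorted from shNC tumours gave 3 libraries and T cells sorted from shFgf21 tumours gave 2, called sorted libraries from here on. Tumour-labelled samples, which carry both a tumour tissue label and the MC38 line name, gave 3 libraries of each kind.

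The genotype label of shFgf21 sorted library 2 named FGF22, while its title matched that of its partner, and it was kept with the shFgf21 group. The knockdown was in the tumour cells, not in the T cells. Each sorted library's title strings several numbers together, which may stand for pooled animals. The shNC titles (N2N3N5, N6N7N8 and NC124) join more numbers each than the shFgf21 titles (sh1sh3 and sh2sh4). If the numbers are animals, pool size differs with the group and cannot be told apart from the knockdown in any segment value. The labels give neither the pooling, the sort markers, the age nor the strain of the mice. Whether libraries of a group came from separate animals is not labelled. The p-values below therefore compare libraries, and the spread they are set against may be technical.

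A T cell builds each receptor chain by V(D)J recombination, which joins 1 variable segment to a joining segment (for the beta chain with a diversity segment between them) and splices the result to a constant region. The variable segment encodes most of the outer domain of the chain, including the loops that touch the MHC molecule, and it ends just after a conserved cysteine, where the third and most diverse loop begins. A T cell clone carries 1 productive beta rearrangement and passes it to its daughters, so in a bulk sample the mix of variable segments reflects the mix of clones. Some alpha segments can also join delta segments, and their symbols then carry "dv".

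The 3′ ends of 6 segments that the results turn on are printed first, because this is the part that carries the conserved cysteine and meets the joining segment. Each run is the last 60 bases of the segment's transcript in GENCODE M21, read 5′ to 3′ on the plus strand of mm10, and capitals mark the codon of the conserved cysteine. In each the segment's last exon holds the run, and the annotation lists all 6 as functional variable genes and not as pseudogenes. The runs lie at chr6:41048769-41048828 for Trbv3, chr6:41152171-41152230 for Trbv16, chr6:41141599-41141658 for Trbv15, chr6:41130526-41130585 for Trbv13-3, chr14:52684413-52684472 for Trav7d-2 and chr14:53743646-53743705 for Trav16.
Trbv3: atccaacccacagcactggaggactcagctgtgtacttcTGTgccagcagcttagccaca
Trbv16: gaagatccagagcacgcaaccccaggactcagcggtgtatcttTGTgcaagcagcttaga
Trbv15: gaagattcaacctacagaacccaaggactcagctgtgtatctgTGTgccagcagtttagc
Trbv13-3: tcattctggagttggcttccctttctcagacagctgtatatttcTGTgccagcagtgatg
Trav7d-2: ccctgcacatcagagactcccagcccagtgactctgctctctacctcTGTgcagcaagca
Trav16: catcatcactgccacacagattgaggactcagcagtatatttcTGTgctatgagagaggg

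Many alpha segments exist as near-identical copies, marked d or n in the symbol, which lie in repeated blocks of the locus. The Trav3-3 group shows how close they are. The runs below are the last 60 bases of its members, at chr14:52972979-52973038 for Trav3d-3, chr14:53284116-53284175 for Trav3n-3 and chr14:53666447-53666506 for Trav3-3. Capitals mark the position at which any of them differed. Trav3d-3 and Trav3n-3 were identical over these bases, and Trav3-3 differed from Trav3d-3 by 1 substitution, T40C, counted from 1 at the first printed base.
Trav3d-3: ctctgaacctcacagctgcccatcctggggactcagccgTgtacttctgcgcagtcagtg
Trav3n-3: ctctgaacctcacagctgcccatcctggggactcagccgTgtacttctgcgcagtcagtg
Trav3-3: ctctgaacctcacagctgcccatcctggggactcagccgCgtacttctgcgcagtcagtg

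Library totals were 14944013 to 16654736 counts in the sorted libraries and 14968855 to 19099350 in the tumour libraries. The 16 T cell markers (among them the CD3 chains, Cd4, Cd8a and Lck) summed to 364.2 to 751.6 CPM (counts scaled to a common library total) in the sorted libraries and to 1.294 to 2.672 CPM in the tumour libraries. The sorted libraries thus carried the defining T cell genes, but 12 macrophage markers summed to 11210 to 13510 CPM in the shNC and to 16550 to 17450 CPM in the shFgf21 sorted libraries, and 4 stroma or tumour markers to 10250 to 12120 CPM. In these bulk libraries, fewer T cells and less receptor RNA per T cell cannot be told apart. Where a library listed 0 counts, the level may still have been as high as 3 counts (0.1571 to 0.2007 CPM), a limit that covers counting error only.

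Variable segments were a small share of every sorted library. Alpha segments summed to 456, 369 and 231 counts in shNC sorted libraries 1, 2 and 3, and to 258 and 401 in shFgf21 sorted libraries 1 and 2. Beta segments summed to 506, 468 and 300 counts in the shNC and to 272 and 380 in the shFgf21 sorted libraries, in the same order. shNC library 3 was the lowest of the 5 in alpha counts and shFgf21 library 1 the lowest in beta counts. The groups overlapped at both loci.

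Scaled to library totals, the alpha sum was 22.8 ± 8.155 CPM (SD, n = 3) in shNC and 20.84 ± 5.565 CPM (SD, n = 2) in shFgf21 sorted libraries, a ratio of 0.914. The beta sum was 27.48 ± 8.253 CPM (SD, n = 3) against 20.66 ± 3.995 CPM (SD, n = 2), a ratio of 0.752. Both differences were smaller than the SD of the shNC libraries. The log2 ratio of the alpha sums, -0.13, turned to 0.11 without shNC library 1 and to 0.12 without shFgf21 library 1, so its direction rested on single libraries. That of the beta sums, -0.41, ran from -0.64 to -0.23 with each library left out in turn.

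**Figure D1:**
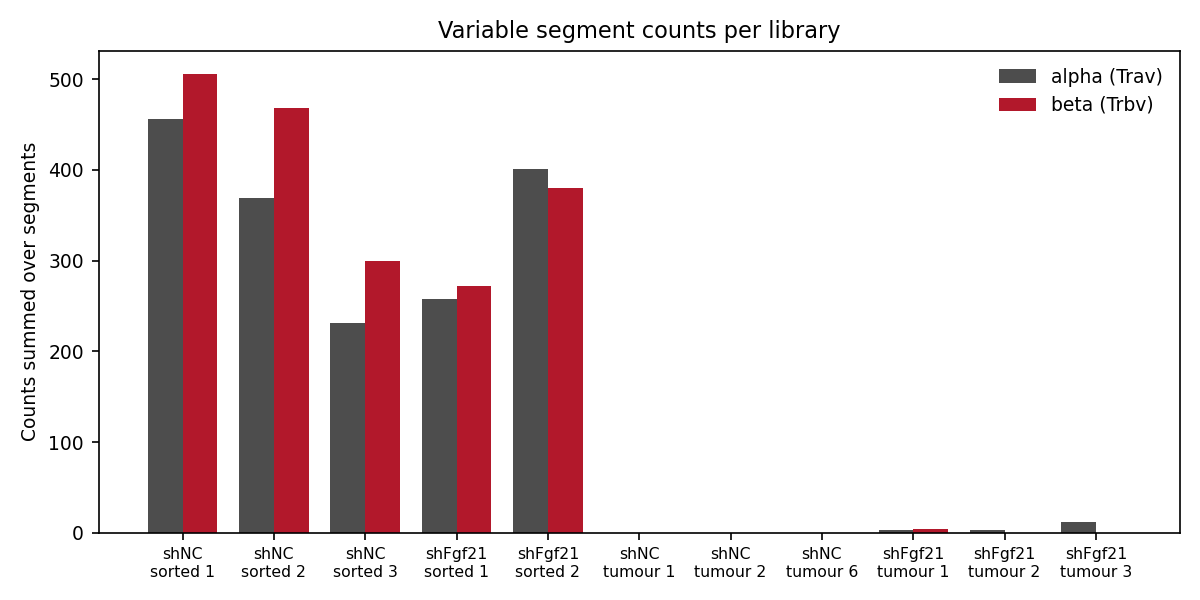
Summed counts of alpha (dark) and beta (red) variable segments in each of the 11 libraries (vertical axis, counts on a linear scale from 0). The 5 sorted libraries hold 231 to 506 counts per locus, and no tumour library holds more than 12.

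In the tumour libraries the segments were almost absent. The 12 macrophage markers were also low there, with sums of 36.18 to 49.17 CPM against 11210 to 17450 CPM in the sorted libraries. Low values in the tumour libraries were thus not particular to T cell genes. All 3 shNC tumour libraries held 0 variable segment counts, and the shFgf21 tumour libraries held 7, 3 and 12. The 22 counts fell on 7 segments, chosen here because they are all there were. Trav13-2 had 3 counts in library 1 and 5 in library 3, Trav14-2 had 4 in library 3, and Trbv20 had 4 in library 1. Trav7n-6 and Trav4-3 had 2 each, and Trav12-3 and Trav4-4-dv10 had 1 each. Trac, the alpha constant gene, had 4, 3 and 3 counts in the shNC and 6, 5 and 0 in the shFgf21 tumour libraries, so library 3, with the most variable segment counts, had none of it. No variable segment passed the filter on low counts in the tumour libraries. With no filter, edgeR's quasi-likelihood test called 0 of these 7, and 1 (Trav13-2) was higher in shFgf21 at an unadjusted p of 0.05. Over all genes in that fit, 1436 of 28356 passed this unadjusted p in either direction. All 7 segments had counts only in shFgf21 tumour libraries, so none of them could be lower there. DESeq2 gave none of the 7 an adjusted p. Of all genes that passed the filter in the tumour libraries, 0.0334% passed an adjusted p of 0.05 (edgeR quasi-likelihood test).

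The segment sums moved with the T cell markers of a library. The 16 T cell markers summed to 751.6, 669.2 and 364.2 CPM in the shNC and to 436.3 and 517.7 CPM in the shFgf21 sorted libraries, and all variable segments together to 62.96, 56.01, 31.88, 34.74 and 48.26 CPM in the same order. Per 100 counts of T cell markers, this gave 8.378, 8.369 and 8.755 segment counts in the shNC and 7.962 and 9.321 in the shFgf21 libraries. The group means of 8.501 ± 0.2203 (SD, n = 3) and 8.642 ± 0.961 (SD, n = 2) differed by less than the spread of the shFgf21 libraries.

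Against their own constant genes, the loci behaved differently in 1 library. Alpha segments had 35.88, 36.57 and 37.87 counts per 100 Trac counts in the shNC and 38.68 and 56.01 in the shFgf21 sorted libraries. The shFgf21 libraries were both above the shNC libraries, by a little in library 1 and by far in library 2. Beta segments had 35.89, 37.68 and 28.52 counts per 100 counts of the beta constant genes Trbc1 and Trbc2 in the shNC libraries, and 32.97 and 33.78 in the shFgf21 libraries, so the groups overlapped. These ratios are no levels per molecule, because variable and constant genes differ in length and in how many reads can be assigned to them.

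Of the 35 beta segments, 24 had at least 1 count in a sorted library, and they included all 22 that are not annotated as pseudogenes. Only 2 of 13 pseudogenes had a count, Trbv24 with 6 and Trbv18 with 1 over the 5 libraries. A further 11 pseudogenes were listed at 0 in all 5. In all 5 sorted libraries a count was present for 18 segments. Pseudogenes held at most 1.053% of a library's beta counts.

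Levels between segments are compared as CPM per kilobase of merged exons, with the mean and SD over the 5 sorted libraries. Trbv3 (chr6:41048290-41048828) was at 6.883 ± 2.651 CPM per kilobase, Trbv15 (chr6:41141188-41141658) at 6.828 ± 5.715 and Trbv16 (chr6:41151740-41152230) at 6.437 ± 1.958, and these did not differ beyond their spread. Trbv12-2, Trbv5, Trbv13-1 and Trbv1 followed at 5.008 to 4.549 CPM per kilobase, also within each other's SD. Trbv13-3, Trbv26 and Trbv13-2 were at 3.057 to 2.846 CPM per kilobase. The 24 segments with a count ran from 0.042 to 6.883 CPM per kilobase, with a median of 1.958. Trbv31, the only member on the minus strand (chr6:41557691-41558452), was at 0.886 CPM per kilobase.

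The leading beta segment differed between libraries. Trbv15 had 76, 70 and 22 counts in the shNC and 12 and 14 in the shFgf21 sorted libraries. It led in shNC library 1 with 15.02% of the beta counts (exact Clopper-Pearson 95% interval 12.02 to 18.44%) and in shNC library 2 with 14.96% (11.85 to 18.52%), and it was lower in each of the other 3. Trbv3 had 47, 63 and 57 counts in the shNC and 17 and 62 in the shFgf21 libraries. It led in shNC library 3 with 19% (14.72 to 23.9%) and in shFgf21 library 2 with 16.32% (12.74 to 20.42%), and was lowest in shFgf21 library 1.

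Trbv1 had 42, 13 and 22 counts in the shNC and 42 and 29 in the shFgf21 sorted libraries. It led in shFgf21 library 1 with 15.44% of the beta counts (11.36 to 20.29%). Trbv5 had 38, 17 and 14 counts in the shNC and 41 and 25 in the shFgf21 libraries, and was next there with 15.07%. Trbv16 had 41, 49 and 29 counts in the shNC and 27 and 54 in the shFgf21 libraries, and it was the steadiest of these segments with 8.103 to 14.21% of the beta counts. Intervals and shares rest on counts of reads without molecular identifiers known to have been used, so they cover counting error only.

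The other leading beta segments overlapped between the groups, except Trbv13-3. Trbv13-3 had 50, 15 and 8 counts in the shNC and 2 and 5 in the shFgf21 sorted libraries, so the shNC libraries were all above the shFgf21 libraries and most of its counts were in shNC library 1. Trbv13-1 had 50, 23 and 21 counts in the shNC and 16 and 22 in the shFgf21 libraries. Trbv13-2 had 25, 12 and 15 against 4 and 20 counts. These 3 segments share a family name, and shNC library 1 had the most counts of the 5 for each of them. By share of a library's beta counts, Trbv13-2 was instead highest in shFgf21 library 2, at 5.263%. Trbv12-2 had 28, 39 and 34 counts against 18 and 32, and Trbv26 had 15, 21 and 11 against 18 and 21.

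**Figure D2:**
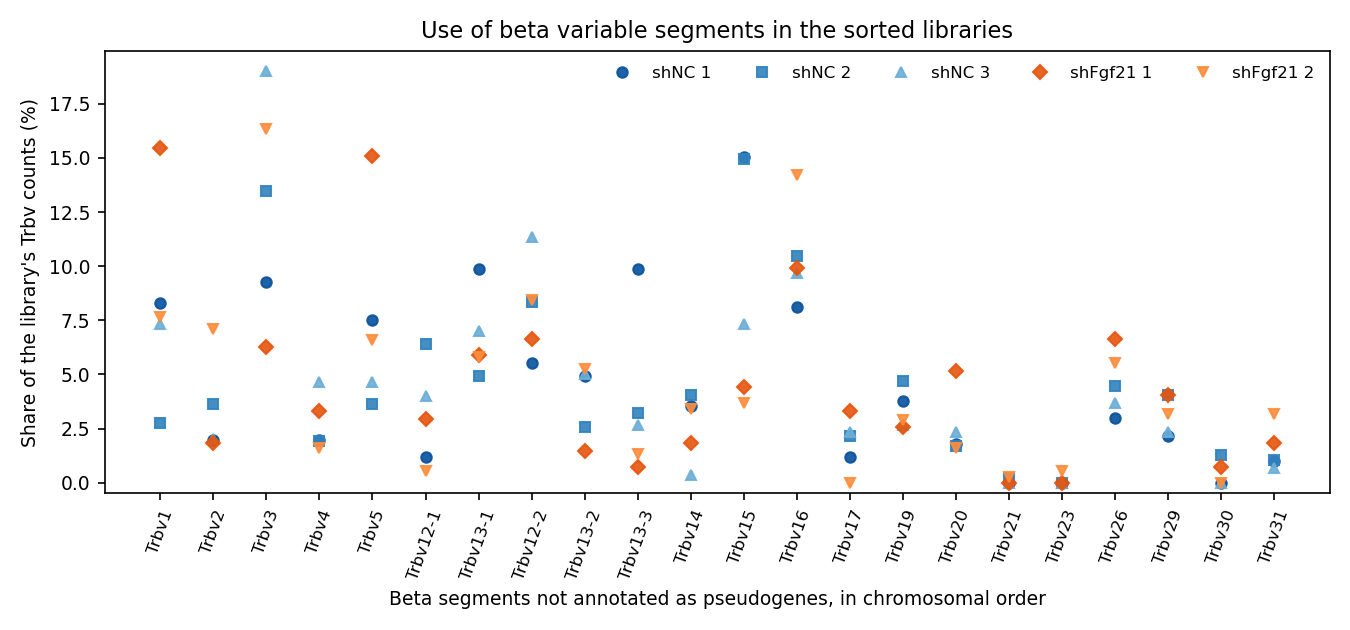
Share of each library's beta variable counts (vertical axis, percent) on each of the 22 beta segments that are not pseudogenes, in chromosomal order; blue symbols are the 3 shNC and orange symbols the 2 shFgf21 sorted libraries. Trbv15 stands at 15.02% and 14.96% in shNC libraries 1 and 2 and at 4.412% and 3.684% in the shFgf21 libraries, and Trbv1 and Trbv5 stand highest in shFgf21 library 1.

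The alpha locus was spread over many more segments at lower counts. Of 130 alpha segments, 102 had a count in a sorted library. These were 100 of 110 segments not annotated as pseudogenes and 2 of 20 pseudogenes, Trav8-2 with 6 and Trav13-3 with 3 counts. A count was present in all 5 sorted libraries for 27 segments, in 4 for 30, in 3 for 19, in 2 for 16 and in only 1 for 10. The median segment with a count had 12 counts over the 5 libraries, against 62.5 for beta segments. Levels of these segments ran from 0.0228 to 3.548 CPM per kilobase of merged exons, with a median of 0.413.

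Trav7d-2 (chr14:52683964-52684472) was the highest alpha segment per length, at 3.548 ± 1.792 CPM per kilobase (SD, n = 5 libraries). Trav3d-3 (chr14:52972448-52973038) was at 2.97 ± 1.84 and Trav12n-3 (chr14:53240745-53241244) at 2.929 ± 2.733 CPM per kilobase, and the 3 did not differ beyond their spread. Trav6-6, Trav6d-7, Trav16, Trav9-4, Trav5-4, Trav12d-2 and Trav9-2 were at 1.95 to 0.888 CPM per kilobase. Trav7d-2 had 30, 24 and 20 counts in the shNC and 9 and 10 in the shFgf21 sorted libraries, with no overlap between groups. Trav12n-3 had 31, 32 and 7 against 6 and 3 counts, again without overlap, though shNC library 3 was close to the shFgf21 libraries. Its near-identical copy Trav12d-3 had 4, 4 and 0 against 2 and 1 counts. With that copy added, the groups overlapped. Trav3d-3 had 38, 14 and 12 against 9 and 26 counts, and the groups overlapped.

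Every sorted library had another leading alpha segment. Trav3d-3 led in shNC library 1 with 8.333% of the alpha counts (exact 95% interval 5.965 to 11.26%), Trav12n-3 in shNC library 2 with 8.672% (6.007 to 12.02%) and Trav7d-2 in shNC library 3 with 8.658% (5.369 to 13.05%). In shFgf21 library 1, Trav7d-3 and Trav6-6 were level with 12 counts each, 4.651% (2.426 to 7.984%). In shFgf21 library 2, Trav16 led with 35 of 401 counts, 8.728% (6.155 to 11.93%). Trav16 had 7, 2 and 2 counts in the shNC libraries and 5 in shFgf21 library 1, so the high value was in 1 library of its group.

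The remaining leading alpha segments had few counts in each library. Trav6-6 had 21, 7 and 10 counts in the shNC and 12 and 2 in the shFgf21 sorted libraries. Trav6d-7 had 13, 9 and 5 against 7 and 13, and Trav9-4 had 12, 11 and 6 against 3 and 10. Trav9-2 had 9, 9 and 5 against 5 and 11, Trav12d-2 had 3, 12 and 7 against 10 and 7, and Trav5-4 had 6, 4 and 5 against 6 and 14. Trav7d-3 had 3, 0 and 0 against 12 and 5. Of these, only Trav7d-3 had all shFgf21 counts above all shNC counts. For Trav5-4 the groups met at 6 counts, and the others overlapped.

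Summed to families, by name without the copy letter, the alpha locus was steadier. The Trav7 family, with 14 segments, held 16.37 ± 3.08% of the alpha counts (SD, n = 5 libraries), the Trav6 family 14.67 ± 1.397%, the Trav12 family 12.36 ± 3.936%, the Trav3 family 9.426 ± 1.547% and the Trav9 family 9.051 ± 1.718%. The first 2 did not differ beyond their spread. Trav12 was at 14.47, 15.72 and 13.85% in the shNC and at 12.02 and 5.736% in the shFgf21 sorted libraries. Trav7 was at 12.06, 14.63 and 19.91% in the shNC and at 17.05 and 18.2% in the shFgf21 libraries, and the groups overlapped.

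**Figure D3:**
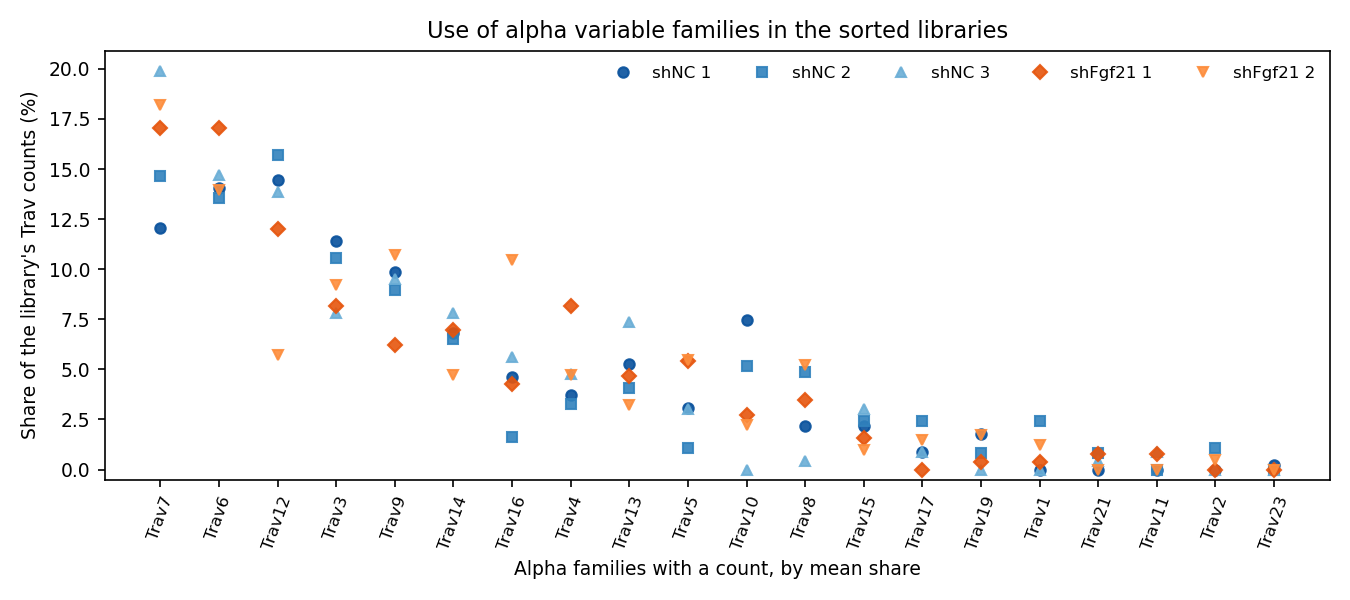
Share of each library's alpha variable counts (vertical axis, percent) on each alpha family with a count, ordered by mean share; blue symbols are the 3 shNC and orange symbols the 2 shFgf21 sorted libraries. The Trav7, Trav6 and Trav12 families have the highest mean shares, and the Trav16 family stands apart at 10.47% in shFgf21 library 2.

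Pairs of libraries were compared by the share of segment use they have in common, which is the sum over segments of the smaller of their 2 shares. For alpha segments it was 54.0 to 64.6% for the 4 pairs within a group and 45.8 to 58.9% for the 6 pairs between groups. For alpha families it was 79.5 to 87.4% within and 78.2 to 84.7% between groups. Summing segments to families cannot lower this measure, so the higher values are no finding about families. For beta segments it was 69.1 to 76.8% within and 66.0 to 78.3% between groups. The ranges overlapped in each case. The pairs share libraries and the libraries differ in the number of segment counts, so these values are a description without a test.

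Some segments were concentrated in 1 library. Those with at least 20 counts were ranked by the highest library's share against the pooled share of the other 4, so the members named here were chosen after their values were seen. Trav10d had 22 of its 28 counts in shNC library 1, 4.825% of the alpha counts there against 0.477% in the other 4 libraries. Trav7d-3 was at 4.651% in shFgf21 library 1 against 0.549% in the others. Trav16 was at 8.728% in shFgf21 library 2 against 1.218% (exact 95% interval 0.698 to 1.97%) in the others. Trav12n-1 was at 3.07% in shNC library 1 against 0.556% in the others. Trbv13-3 was at 9.881% of the beta counts in shNC library 1 against 2.113% in the others. Of these 5 segments, 3 were highest in shNC library 1, which had the most variable segment counts, and the other two in 1 shFgf21 library each.

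Per-copy counts of alpha segments need care, because reads from near-identical copies cannot be assigned by sequence. Windows of 100 bases were compared among the annotated transcripts of the Trav and Trbv segments only, not with other genes. Of the 130 alpha segments, 40 had no unique window, and they held 29.81 ± 4.108% of the alpha counts (SD, n = 5 libraries). The 70 segments with at least 50% unique windows held 51.48 ± 6.597%. All 35 beta segments had at least 50% unique windows. Segments with the copy letter d, 40 in all, held 28.64% of the alpha counts on average, those with n, 34 in all, 24.1%, and the 56 without either letter 47.26%.

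Among alpha segments, 21 pairs shared at least 95% of their windows, and 17 of these pairs had identical transcripts. Their segments held 39.48% of all alpha counts, and 9 of the 42 had no count. In the 11 pairs with at least 20 counts, the copy with more counts held 79.59 to 100% of them, with a median of 87.78%. Trav3d-3 had 99 counts over the 5 sorted libraries and its identical copy Trav3n-3 had 19. Trav7d-2 had 93 and Trav7-2 had 13, Trav12n-3 had 79 and Trav12d-3 had 11, and Trav6-6 had 52 and Trav6d-6 had 11. The higher copy was picked by these counts, so the split is a description. In 4 of the 11 pairs it was the higher in all 5 libraries. How the counting treated reads that match several copies is not given in the sources used here, so counts of such segments stand for the pair.

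**Figure D4:**
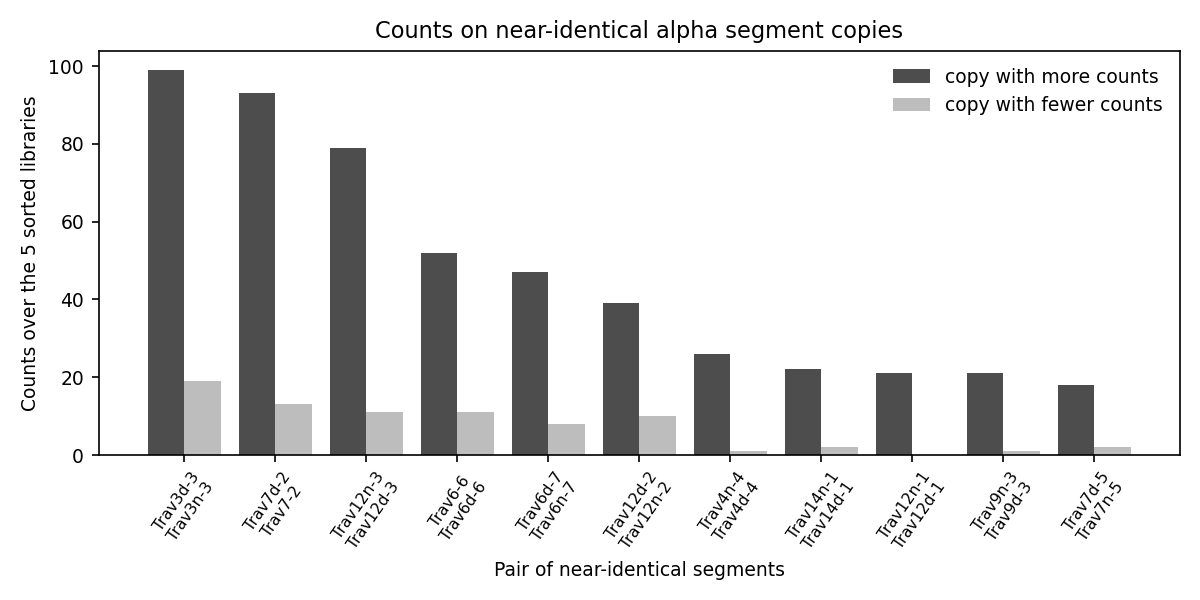
Counts over the 5 sorted libraries (vertical axis, linear from 0) on the 2 members of each pair of near-identical alpha segments with at least 20 counts, the copy with more counts in dark and the other in light grey. In each of the 11 pairs the counts are split unevenly, from 79.59% to 100% on 1 copy.

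The number of alpha segments with a count was 78, 77 and 50 in the shNC and 71 and 78 in the shFgf21 sorted libraries. Since more counts reveal more segments, the number expected in a random draw of 231 alpha counts, the lowest library sum, was computed for each library. It was 67.98, 70.07 and 50 in the shNC and 69.13 and 68.98 in the shFgf21 libraries. By this number, shNC library 3 held fewer listed alpha segments than the other 4 at equal counts. The draw takes each copy as its own segment and each count as independent, while counts of near-identical copies stand for the pair. Beta segments with a count numbered 19, 21 and 20 in the shNC and 20 and 22 in the shFgf21 libraries. At 272 counts, 18.96 to 21.25 were expected in each library.

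The 5 most counted alpha segments of a library held 31.14, 25.75 and 26.41% of its alpha counts in the shNC and 20.16 and 24.69% in the shFgf21 sorted libraries. The shNC libraries were all above the shFgf21 libraries, with means of 27.77 ± 2.94% (SD, n = 3) and 22.43 ± 3.203% (SD, n = 2), though the gap between the nearest libraries was small. Counted by families, the top 5 held 61.84 to 65.8% and 62.4 to 62.59%, and the groups overlapped. For beta segments the top 5 held 52.37 to 54.67% in the shNC and 53.68% in both shFgf21 libraries. The top 5 beta families held 65.42, 64.32 and 66.0% in the shNC and 58.09 and 59.47% in the shFgf21 libraries, without overlap. The top segments were picked in each library by these counts, so no test was made.

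Single segments were then compared between shFgf21 and shNC sorted libraries by edgeR's quasi-likelihood test over all 16454 genes that passed the filter on low counts. Of the 165 segments, 23 passed the filter, 7 alpha and 16 beta, and the rest had too few counts. None of the 23 passed an adjusted p of 0.05 (Benjamini-Hochberg over all genes tested), where 0.079% of all genes did. At an unadjusted p of 0.05, 4 of 23 were lower in shFgf21, against 5.31% of all genes, and 0 were higher, against 5.89%. With no filter, 126 segments were tested, of which 5 were lower and 5 higher at an unadjusted p of 0.05 and 0 were called. Over all genes in that fit, 2165 of 30679 passed this unadjusted p in either direction. DESeq2 gave an adjusted p for only 18 of the 126 and called 0 of these. At its unadjusted p of 0.05, 5 of the 126 were lower and 2 higher, against 1560 of 30679 genes in either direction. The standard errors of the edgeR log2 fold changes of the 23 ran from 0.36 to 0.96, and changes of more than 3 standard errors also did not pass the adjusted threshold.

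Of the 23 log2 fold changes 16 were below 0 and 7 above 0, where 51.8% of all genes were below 0, and their median was -0.48 against -0.01 over all genes. The median of the segments that passed the filter moved to -0.04 without shFgf21 library 1 and to -0.86 without shFgf21 library 2. It was -0.15 without shNC library 1, -0.28 without shNC library 2 and -0.57 without shNC library 3. The filter passed 17 to 35 segments in these fits, so the medians cover different segments. With no filter the median of the 126 segments was -0.05, against -0.04 over all genes. In 5 of 23 the groups did not overlap and shFgf21 was lower, against 15% of all genes, and in 0 of 23 shFgf21 was higher without overlap, against 14.5%. A segment with few counts can pass the filter through the group where it is high, so these counts describe the 23 and stand for no other segment. Of the T cell markers, 11 of 16 were also lower in shFgf21, with a median log2 fold change of -0.23. Of 12 macrophage markers, 11 were higher in shFgf21, with a median of 0.54. No marker of either list passed the threshold, and the part of these differences in the segment values was not tested.

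Trbv15 had the smallest p of the 23. Its TMM-scaled level was 3.613 ± 2.003 CPM (SD, n = 3) in shNC and 0.846 ± 0.0656 CPM (SD, n = 2) in shFgf21 sorted libraries, a log2 fold change of -2.08 ± 0.60 (SE) with an edgeR adjusted p of 0.298, which did not pass. Without shNC library 3, the shNC library lowest in Trbv15, the log2 fold change was -2.49 ± 0.31 with an edgeR adjusted p of 0.0437, and this was the only segment called with any library left out. Leaving out each library in turn gave log2 fold changes from -2.49 to -1.80. DESeq2 on all 5 libraries gave an adjusted p of 0.0707.

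Trav7d-2, Trav12n-3 and Trbv13-3 were the other 3 at an unadjusted p of 0.05, and none passed the adjusted threshold. Trav7d-2 was at -1.33 ± 0.41 on the log2 scale (SE, edgeR adjusted p = 0.316), Trav12n-3 of -2.32 ± 0.81 (edgeR adjusted p = 0.364) and Trbv13-3 of -2.73 ± 0.96 (edgeR adjusted p = 0.368). Trav7d-2 and Trav12n-3 share nearly all their windows with another copy. Trav7-2, the near-identical copy of Trav7d-2, had 4, 6 and 3 counts in the shNC and 0 and 0 in the shFgf21 sorted libraries. Summed to families, Trav7 had a log2 fold change of 0.21 ± 0.28 (edgeR adjusted p = 0.818) and Trav12 of -0.91 ± 0.40 (edgeR adjusted p = 0.461). The Trav7 value was smaller than its standard error, so it gave no clear direction. The Trbv13 family had a log2 fold change of -1.05 ± 0.54 (edgeR adjusted p = 0.523). Trbv4, the fifth segment without overlap, was at -0.49 ± 0.49.

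Toward higher values in shFgf21, Trbv5 had a log2 fold change of 0.56 ± 0.50, Trbv1 of 0.52 ± 0.48 and Trbv26 of 0.34 ± 0.43, each about the size of its standard error. Trbv3 was at -0.47 ± 0.46 and turned to 0.17 without shFgf21 library 1. Trbv16 was at 0.05 ± 0.39. Trav3d-3 was at -0.26 ± 0.65 and turned to 0.46 without shNC library 1 and to 0.29 without shFgf21 library 1. Of 25 families that passed the filter none was called, and their median log2 fold change was -0.15.

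**Figure D5:**
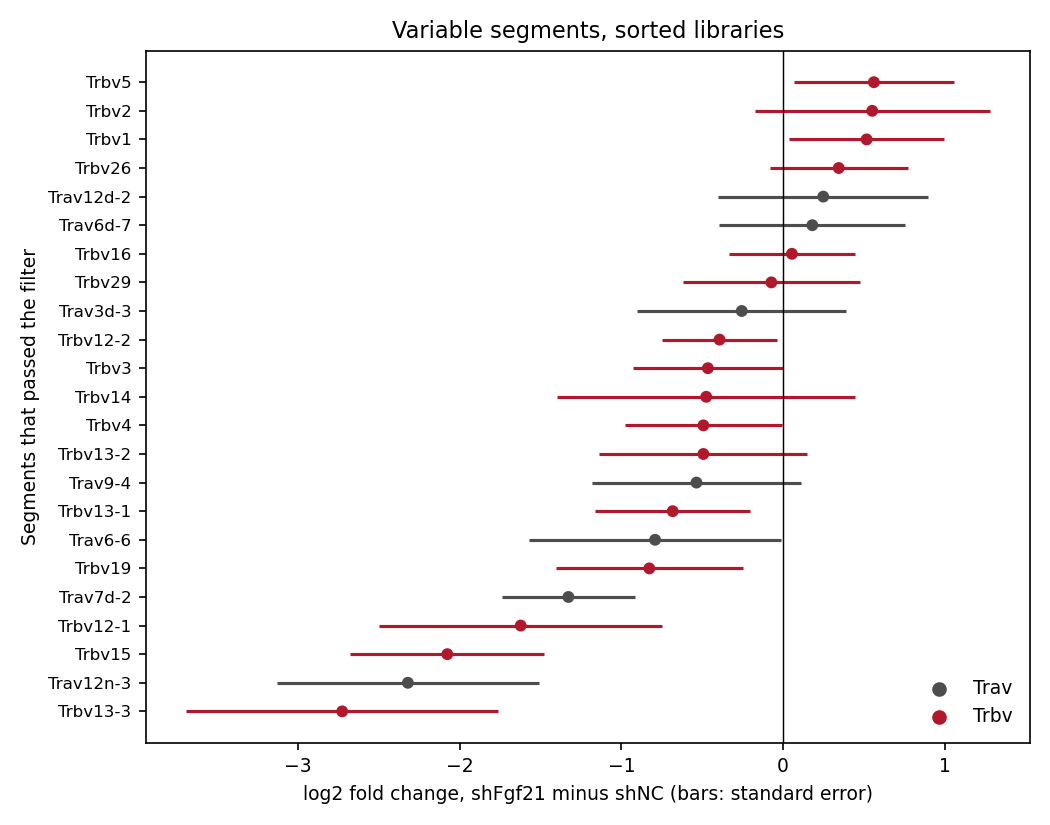
log2 fold change, shFgf21 minus shNC (horizontal axis, bars are standard errors), of the 7 alpha (grey) and 16 beta (red) segments that passed the filter on low counts in the sorted libraries. Trbv13-3, Trav12n-3 and Trbv15 lie lowest, from -2.73 to -2.08, and none of the 23 passed an adjusted p of 0.05.

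The other genes of the receptor gave counts of their own. The constant genes carry the part of the chain next to the membrane. Trac had 1271, 1009 and 610 counts in the shNC and 667 and 716 in the shFgf21 sorted libraries, with a log2 fold change of -0.45 ± 0.29 (edgeR adjusted p = 0.612). Trbc1 had 475, 494 and 433 counts against 301 and 371, with no overlap between groups and a log2 fold change of -0.44 ± 0.15 that did not pass (edgeR adjusted p = 0.356). Trbc2 had 935, 748 and 619 counts against 524 and 754. All 7 constant genes of the list (alpha, beta, gamma and delta) had fold changes below 0, and 0 of 7 passed.

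The CD3 chains, which carry the receptor's signal into the cell, were all 4 below 0, with Cd3e at -0.60 ± 0.28 (edgeR adjusted p = 0.48) and Cd247 at -0.12 ± 0.33, and 0 of 4 passed. Of 10 genes that relay the signal (Lck, Zap70, Lat and others), 6 were above and 4 below 0, and 0 passed. Among the coreceptors, Cd8a was at -0.68 ± 0.40 and Cd8b1 at -0.91 ± 0.39, while Cd4 was at 0.34 ± 0.23 and did not overlap between groups. None of these 3 passed.

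Joining segments, which follow the variable segment in the rearranged gene, had few counts. The 60 alpha joining segments (Traj) summed to 28, 18 and 16 counts in the shNC and to 15 and 25 in the shFgf21 sorted libraries. The 14 beta joining segments (Trbj) summed to 28, 25 and 27 against 26 and 22 counts. Each of the 14 Trbj genes had 1 to 4 counts in every sorted library, a narrower spread than among the variable segments.

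Variable segments of other receptors were also present. The 6 delta-only segments (Trdv) summed to 13, 32 and 25 counts in the shNC and to 8 and 18 in the shFgf21 sorted libraries, and the 7 gamma segments (Trgv) to 17, 30 and 11 against 11 and 16. Alpha segments whose names are shared with delta, 10 in all, held 6.407 ± 2.598% of the alpha counts (SD, n = 5 libraries). The delta constant gene Trdc had 74, 110 and 90 counts against 60 and 77. The list of 5 gamma-delta T cell genes holds 4 of the constant genes already counted and Sox13. Sox13 was at 3.46 to 5.178 CPM in the sorted and 6.146 to 10.26 CPM in the tumour libraries, so its level cannot stand for T cells here. All 5 NK cell genes were below 0, and none passed. Immunoglobulin variable genes, which belong to B cells, had 81, 133 and 109 heavy chain counts (Ighv) in the shNC and 96 and 34 in the shFgf21 libraries. B cell markers were lower in 4 of 5 that could be tested, and none passed.

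Genes that mark particular states of the receptor loci were low. Rag1 and Rag2, the recombinase of developing lymphocytes, had 0 counts in every sorted library, and Dntt, which adds bases at the joints, had 1 to 5. Trav11, the alpha segment of invariant NKT cells, had 0 counts in all 5, while its copy Trav11d had 2 in shNC library 3 and 2 in shFgf21 library 1. Trav1, the segment of mucosal-associated invariant T cells, had 0, 9 and 0 counts in the shNC and 1 and 5 in the shFgf21 libraries. Zbtb16, a transcription factor of invariant T cells, had 7, 13 and 17 against 5 and 18.

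Of 8 genes next to the loci, Dad1 and Ephb6 were expressed in all 11 libraries. Dad1, near the alpha constant gene, had 1115 to 1239 counts in the sorted libraries, with a log2 fold change of -0.07 ± 0.11, and Ephb6, near the beta locus, had 266 to 359, with 0.20 ± 0.15. Neither passed. The other 6 are trypsinogen genes of the beta locus, and they had 0 to 3 counts in any sorted library.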

How the data were processed

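Bulk RNA-seq counts per gene, whole numbers deposited by the authors for 11 libraries, were analysed as deposited. The authors' deposited FPKM values use a gene length that, for 42 of the 126 segments with a count, was 1.543 to 1.991 times that of the merged exons, so levels were computed as CPM per kilobase of merged GENCODE M21 exons. Per the submitters' processing notes, the genome build was mm10. The aligner was not given in the sources used here, nor was the counting program. The same holds for the treatment of reads matching several genes, for whether counts are rounded estimates, and for strandedness and molecular identifiers.

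All 165 segments had identical coordinates in GENCODE M21. Groups came from sample titles. Each kind of library was fitted alone in R 4.3.3 with edgeR 4.0.16 (filterByExpr, TMM, quasi-likelihood test, Benjamini-Hochberg over all genes tested, threshold 0.05). The fits were run on simulated data first. Changes were placed there only in genes at levels above those of every variable segment, so that run does not cover the segments. SE was taken as the absolute log2 fold change over the root of the F statistic. Sums, shares and numbers of segments got no test. Alternatives were DESeq2 1.42.0, its size factors, no filter, all 4 groups in 1 fit, families, other thresholds for a segment seen and each library left out, and in the tumour libraries the title number as a block. The members and lists were chosen with earlier results of these data known. Segments named are the 10 highest of each locus by mean CPM, each library's leaders, Trav11 and Trav1, and other segments were named after their values were seen.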

Additional observations from a re-analysis of the deposited data

How the results depend on the processing

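Of 16454 genes tested in the sorted libraries 13 were called. The count was 11 with DESeq2's size factors, 13 with segments summed to families, 1 with all 4 groups in 1 fit, 1 without the filter on low counts, 216 with DESeq2, and 0 to 34 with 1 library left out (1 without shFgf21 library 1, 0 without shFgf21 library 2, 28 without shNC library 1 and 34 without shNC library 3). In the tumour libraries 5 genes were called, none a variable segment. The count was 26 with all 4 groups in 1 fit, 109 with DESeq2, 7 without the filter and 0 to 8 with 1 library left out. With the title number as a replicate block it was 131. Only numbers 1 and 2 occur in both groups, so that fit had little left to estimate the spread. Same-numbered libraries deviated together weakly for number 1 (correlation 0.165) and not for number 2 (-0.153). The unmatched pair of shNC number 2 and shFgf21 number 3 also had a correlation of 0.165, so these values give no ground for pairing by number. No paired analysis was possible because the sorted libraries' titles join several numbers each, some of which recur across more than 1 library and match no library to a single partner.

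The difference in the top 5 share of alpha segments, -5.34 percentage points, was -1.87 for the top segment alone and -1.19 for families, and ran from -7.61 to -3.08 with 1 library left out. The difference of 0.12 points for beta segments was -6.47 for families. The difference of 6.167 in alpha segments seen was -4.833 at 3 or more counts, -1.0 at 10 or more, and ran from -3.0 (without shNC library 3) to 11.0 with 1 library left out. The difference of 1.0 in beta segments seen was -1.0 at 3 or more counts and -2.0 at 10 or more. The log2 ratio of the alpha sums, -0.13, was 0.36 per count of Trac, and that of the beta sums, -0.41, was -0.03 per count of Trbc1 and Trbc2. Of 216 values of 25 named genes under alternatives, 13 changed sign, all with 1 library left out and none past the threshold. Their ranges with each library left out in turn were -1.16 to 0.46 for Trav3d-3, -0.29 to 0.53 for Trav6d-7, -1.58 to 0.054 for Trav9-4, -0.12 to 0.51 for Trav12d-2, -1.63 to 0.17 for Trbv3, -0.49 to 0.45 for Trbv16, -2.01 to 0.22 for Trbv13-2 and -0.40 to 0.14 for Cd247. The cause was not tested. Counts of 231 to 506 per locus and library limit what a single segment can show, and 142 of 165 segments were too low to test.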

Other observations

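Counts of 1 were rarer than counts of 2 among the 825 values of the 165 segments in the 5 sorted libraries, with 369 values of 0, 55 of 1, 76 of 2 and 60 of 3. The 70 values of the 14 Trbj genes in the same libraries all lay between 1 and 4. How the authors' counts were made is not given in the sources used here, so these are reported as values.

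The length behind the deposited FPKM matched the summed length of all transcripts of a segment within 1 base for 120 of 126 segments with a count, and the merged exons for 84. Trav12d-2 was 24th among alpha segments by mean FPKM and 9th by CPM per kilobase of merged exons, and Trbv26 was 15th and 9th among beta segments.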
